A study of Danio rerio with 12 samples.

Results

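The genes of fatty acid oxidation were measured by RNA sequencing in liver of wild-type TU zebrafish. The 34 genes were taken by symbol from a list of the carnitine shuttle, fatty acid activation, mitochondrial and peroxisomal beta oxidation, electron transfer and ketone steps. No measured value entered the rule, but the list was chosen with earlier results of these data known. All 34 were present among the 32520 genes of the deposited table. Fish aged 4 months had been kept for 28 days, and the 12 liver libraries formed 4 groups of 3: females exposed to 10 µg/L of bisphenol AF (BPAF), which carries trifluoromethyl groups where bisphenol A has methyl groups, females kept with 0.0001% of the solvent dimethyl sulfoxide (DMSO), males exposed to 10 µg/L BPAF, and males kept with 0.0001% DMSO. The labels examined give no solvent level for the exposed fish, so effects of BPAF and of unequal solvent cannot be told apart. They also do not say whether a library is 1 animal or a pool. The p-values thus reflect only sample-to-sample spread, and this may be technical.

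Beta oxidation shortens fatty acids step by step to acetyl-CoA. Long-chain acids are first activated to acyl-CoA and carried into mitochondria by the carnitine shuttle, where carnitine palmitoyltransferase 1 (CPT1) is the regulated entry step. Acyl-CoA dehydrogenases then start each round and pass electrons through the electron transfer flavoprotein to the respiratory chain, while peroxisomes handle very long and branched acids. The liver is known for running this pathway at a high rate in fasting and for turning part of the acetyl-CoA into ketone bodies. The roles given below are those known from the mammalian counterparts of these genes.

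Values are TPM, transcript abundances scaled to gene length and to the same total in each library. A gene was tested if it reached 1 TPM in at least 3 libraries. That left 11389 genes, with 33 of the 34 members among them and acsl1a, a long-chain acyl-CoA synthetase, left out. Tests were made with limma on log2(TPM + 1), a scale that understates the changes of low genes, and called genes are those with a Benjamini-Hochberg adjusted p under 0.05 over all tested genes.

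Some libraries stood apart before any comparison. All 15 hepatocyte markers were found and reached 1 TPM, and their summed level was 72607 to 102255 TPM in female livers and 228841 to 296085 TPM in male livers. Genes of vitellogenin, the yolk precursor made by female liver, took 19.5% to 25.7% of all TPM in females and 0.00115% to 0.0108% in males. Summed over 7 heart muscle symbols, a list chosen after the values were seen, male BPAF library 1 held 977 TPM and male DMSO library 1 held 92.8 TPM, against 0.05 to 3.33 TPM in the other 10 libraries. For 22 of the 34 members these were also the 2 highest male libraries. Their mean log2(TPM + 1) over the members was 5.413 and 5.155, beside 4.860 in male BPAF library 2, the next male library. Over all tested genes the means were 3.124 and 2.695, beside 2.688 in male BPAF library 3, so male DMSO library 1 was hardly apart there. The share of all tested genes with these as the 2 highest male libraries was not computed. Summed intestinal markers reached 5302 TPM in male BPAF library 3 and 998 TPM in male DMSO library 3, against 5.9 to 444 TPM elsewhere. Male DMSO library 3 was the lowest male library for 20 members, and its mean log2(TPM + 1) over all tested genes, 2.46, was the lowest of the male libraries too.

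**Figure D1:**
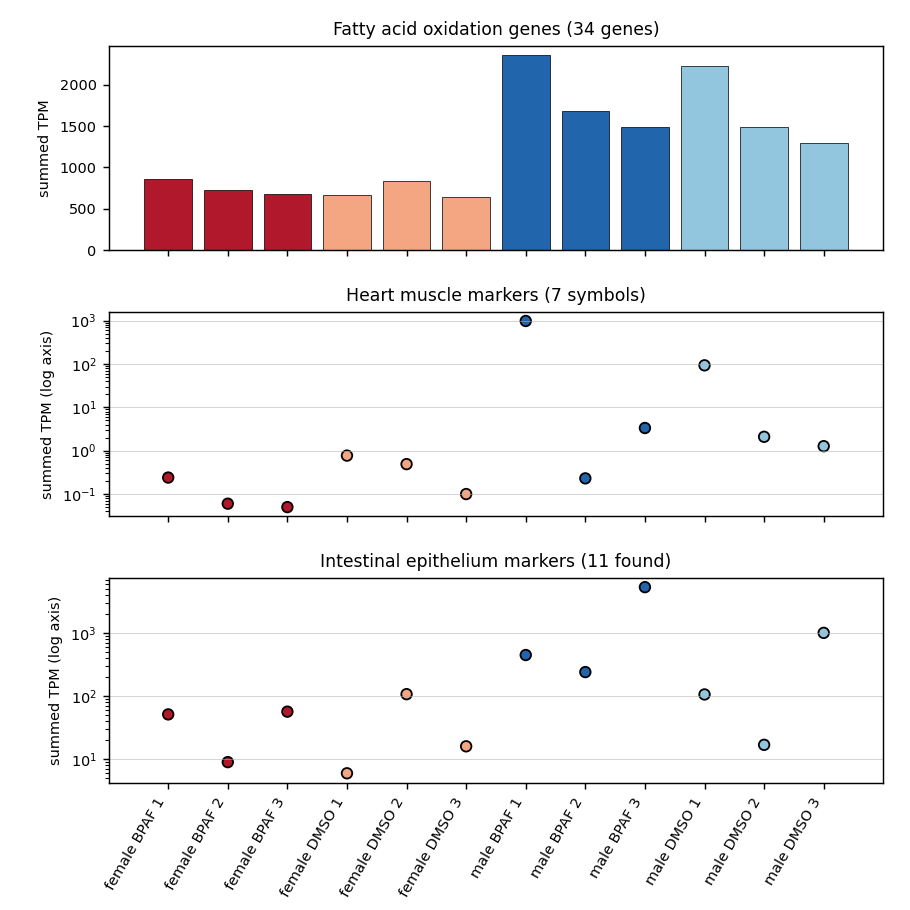
Summed TPM of the 34 fatty acid oxidation genes in each of the 12 libraries (bars from 0), and summed TPM of heart muscle and intestinal markers in the same libraries (log axis). The 6 female libraries hold 647 to 856 TPM of the 34 genes and the 6 male libraries 1301 to 2356 TPM, while male BPAF 1 and male DMSO 1 stand apart in heart markers and male BPAF 3 and male DMSO 3 in intestinal markers.

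Transcripts of the 34 members ranged widely in level. Ordered by mean TPM in male livers (n = 6), acadm, the medium-chain acyl-CoA dehydrogenase, led at 232 ± 69.2 TPM (SD), followed by etfb, a subunit of the electron transfer flavoprotein, at 180 ± 31.5 TPM and eci2, an enoyl-CoA isomerase for unsaturated acids, at 120 ± 32.2 TPM. In female livers the order was etfb at 108 ± 15.001 TPM, acadm at 94.7 ± 16.3 TPM and slc25a20, the carnitine-acylcarnitine translocase, at 52.0 ± 10.9 TPM (SD, n = 6). Ranges of neighbours in these orders overlapped: acadm spanned 158 to 337 TPM in males, against 128 to 221 TPM for etfb. The lowest member in both sexes was acsl1a, with 0.0967 ± 0.0680 TPM in females, against 0.530 ± 0.362 TPM in males (SD, n = 6 each).

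**Figure D2:**
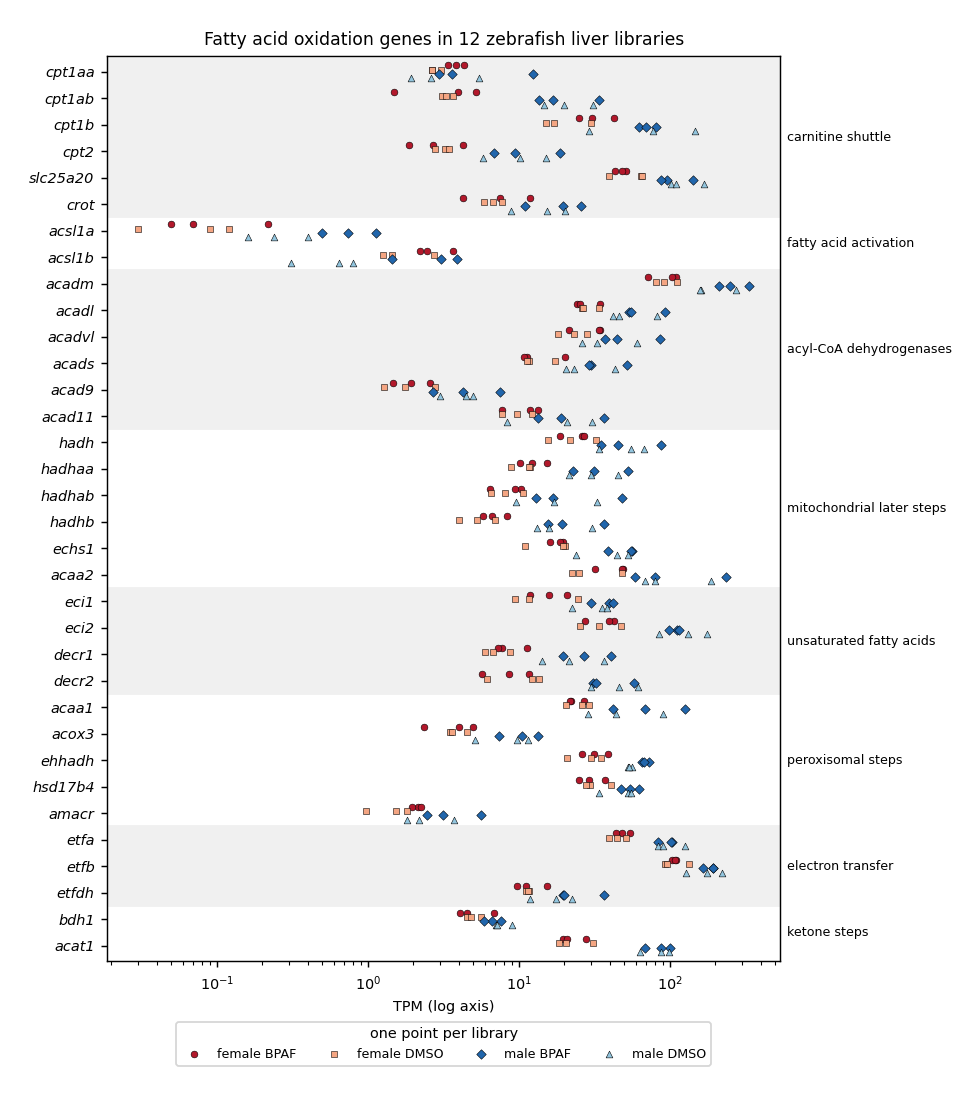
TPM of each of the 34 genes in every library (log axis), arranged by role from the carnitine shuttle to the ketone steps, with 1 point per library and 4 groups. For 18 of the tested genes, among them cpt1ab, acat1, eci2 and decr2, all 6 female points lie below all 6 male points, and acsl1b has no such separation.

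The question of the sex comparison was how the liver pathway differs between females and males, averaged over both treatments. In the deposited values the genes were lower in female livers at almost every step, with 32 of 33 differences negative as deposited and 24 after trimmed-mean scaling. Summed over the 34 genes they came to 736 ± 89.5 TPM in females and 1758 ± 431 TPM in males (SD, n = 6 each). As a share of all TPM outside vitellogenin this was 0.0960 ± 0.0108% in females and 0.179 ± 0.0441% in males. Of the 33 tested members 31 were called lower in females, where 55.4% of all tested genes were called lower, and 0 were called higher, where 3.94% of all tested genes were; 0 members were higher at an unadjusted p under 0.05 either. The median log2 difference, female minus male, was -1.14 over the members and -0.66 over all tested genes. The gap between these medians depended on the settings for low genes. With a filter at 5 TPM they were -1.15 and -0.93, and 29 of 29 tested members were called lower, against 67.5% of all tested genes. With 0.1 added to the TPM in place of 1 they were -1.19 and -0.94, and with 5 added -0.96 and -0.30. All 6 female libraries were below all 6 male libraries for 18 tested members, against 27.7% of all tested genes, and above for 0, against 1.57%. The 2 members not called were acsl1b, a long-chain acyl-CoA synthetase, and cpt1aa, 1 of the liver-type CPT1 genes. In bulk tissue, fewer cells of a type and less RNA per cell cannot be told apart.

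How many members were called lower depended on the scaling, and in the deposited values most tested genes were lower in females. After trimmed-mean scaling of the libraries the median of all tested genes was 0.01 and that of the members -0.24, and after quantile normalization they were -0.01 and -0.22. Under each of these scalings 7 members were called lower, the same ones both times, against 13.1% and 12.7% of all tested genes. These were cpt1ab, cpt2, hadhb, eci2, decr1, decr2 and acat1. Under each, 1 member was called higher, acsl1b, against 15% and 13.9% of all tested genes, and 9 of the 33 members had a positive difference. With the vitellogenin genes removed and the rest rescaled, 21 members were called lower, against 33.8% of all tested genes, and acsl1b higher, against 5.45%. Without male BPAF 1 and male DMSO 1, the libraries with heart markers, 25 members were called lower, against 44.4% of all tested genes, and the medians were -0.91 over the members and -0.56 over all tested genes.

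Markers of other cell types also differed between the sexes, and their part in the result was not tested. Of the hepatocyte markers, 14 of 15 were called lower in females in the deposited values, 7 after trimmed-mean scaling and 11 after quantile normalization. Called lower were also 9 of 10 tested intestinal markers, 10 of 10 red blood cell marker genes, 7 of 10 macrophage and leukocyte markers, 6 of 7 bile duct markers, 7 of 7 stellate and endothelial markers, 1 of 3 muscle markers and 1 of 2 adipocyte markers. After trimmed-mean scaling these counts were 1 intestinal, 5 red blood cell, 1 macrophage and leukocyte, 3 bile duct, 5 stellate and endothelial, 0 muscle and 0 adipocyte markers. Beside the counts of all these lists stand the shares of all tested genes called lower. These were 55.4% as deposited, 13.1% after trimmed-mean scaling and 12.7% after quantile normalization, so several lists were near the share of all genes. Oocyte and ovary markers went the other way, with 5 of 7 called higher as deposited, where 3.94% of all tested genes were. Their summed levels were 3.45 to 197 TPM in females and 0.41 to 11.6 TPM in males. Of 16 exocrine pancreas markers 1 was called higher, and 0 of 1 tested testis marker was called.

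**Figure D3:**
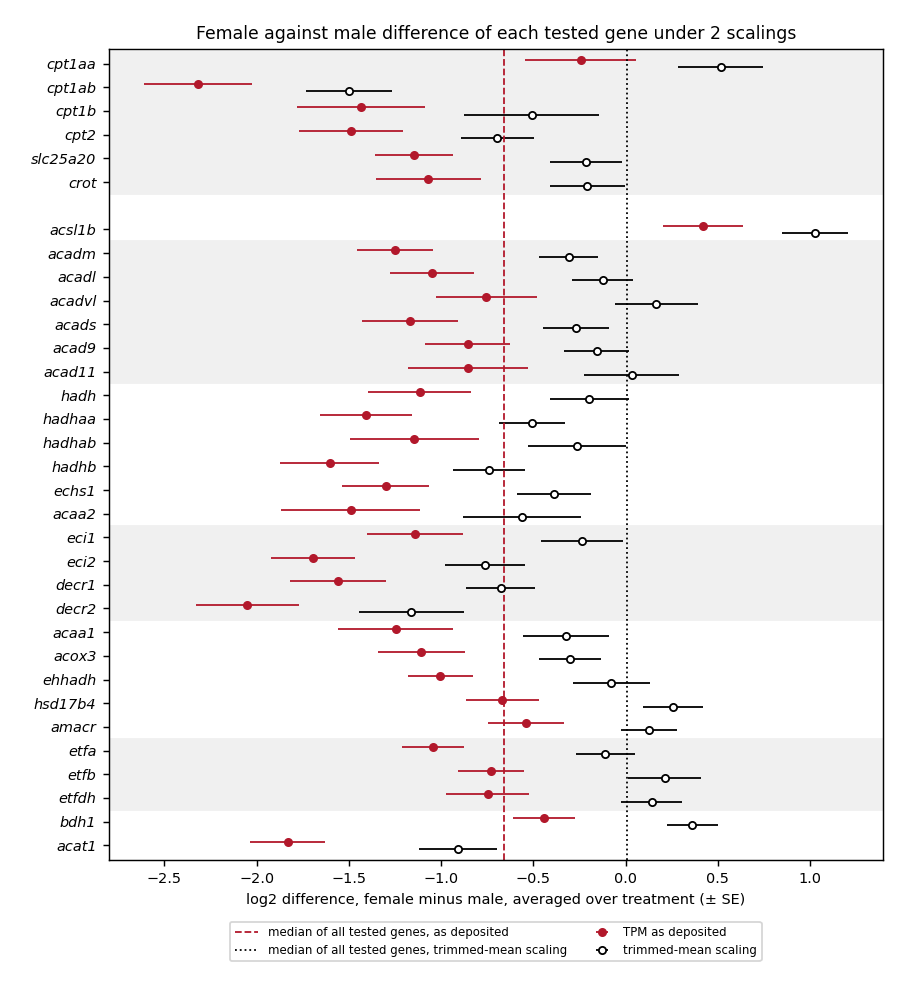
Log2 difference, female minus male and averaged over treatment, for each of the 33 tested genes (points with SE), from TPM as deposited (filled) and after trimmed-mean scaling (open); the vertical lines mark the median of all tested genes under each. In the deposited values 32 genes lie below 0, and after trimmed-mean scaling 24 do, with cpt1ab, decr2 and acat1 farthest below and acsl1b farthest above.

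At the mitochondrial entry the CPT1 genes did not move together. The liver-type gene cpt1ab (ENSDARG00000062054) held 3.98, 5.19 and 1.49 TPM in female BPAF livers and 3.67, 3.12 and 3.28 TPM in female DMSO livers, against 34.1, 16.9 and 13.7 TPM in male BPAF livers and 30.9, 19.9 and 14.7 TPM in male DMSO livers. Every female library was below every male library, and the log2 difference was -2.32 ± 0.29 (SE; limma, adjusted p = 0.000167). It was -1.50 ± 0.23 after trimmed-mean scaling (adjusted p = 0.00145), and the call held in all 22 alternatives. Its paralog cpt1aa (ENSDARG00000059770) held 3.42, 4.32 and 3.86 TPM in female BPAF livers and 3.04, 2.66 and 2.65 TPM in female DMSO livers, against 12.5, 3.63 and 2.97 TPM in male BPAF livers and 5.46, 2.64 and 1.92 TPM in male DMSO livers. Its sexes overlapped, and its difference of -0.24 ± 0.30 (adjusted p = 0.496) turned to 0.52 ± 0.23 after trimmed-mean scaling and to 0.20 without the libraries with heart markers. How the authors' counting divided reads between these paralogs is not stated.

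The muscle-type gene cpt1b, named for its place in mammals, was the most abundant CPT1 gene in all 12 libraries. It held 25.2, 42.5 and 30.6 TPM in female BPAF livers and 30.1, 15.1 and 17.1 TPM in female DMSO livers, against 80.8, 62.4 and 69.3 TPM in male BPAF livers and 147, 29.2 and 77.0 TPM in male DMSO livers. The highest value was in male DMSO library 1, which held 92.8 TPM of heart markers. Male BPAF library 1, with 977 TPM of heart markers, held 80.8 TPM of cpt1b, and male DMSO library 3, with 1.27 TPM of them, held 77.0 TPM. Male DMSO library 2 fell within the female range. The log2 difference was -1.43 ± 0.34 (limma, adjusted p = 0.00465), but -0.51 after trimmed-mean scaling (adjusted p = 0.312).

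Ratios within a library do not depend on the total it is scaled to, and they are given here as a description with no test because they were chosen after the values were seen. The ratio of cpt1aa to cpt1ab TPM was 0.859, 0.832 and 2.59 in female BPAF livers and 0.828, 0.853 and 0.808 in female DMSO livers, against 0.366, 0.214 and 0.217 in male BPAF livers and 0.177, 0.133 and 0.130 in male DMSO livers. The female and male ranges did not overlap, and the highest ratio, in female BPAF library 3, came with the lowest cpt1ab value of the series. Within males the 3 BPAF ratios were above the 3 DMSO ratios, while in females the 2 treatments overlapped. The highest male ratio, 0.366, was in male BPAF library 1, which held 977 TPM of heart markers and the highest cpt1aa value, 12.5 TPM. How often the ratios of other gene pairs part in this way was not computed, and a part of exposure in it was not tested. The share of cpt1b in the summed CPT1 TPM was 72.4% to 85.1% in females and 56.4% to 82.2% in males, which overlapped.

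**Figure D4:**
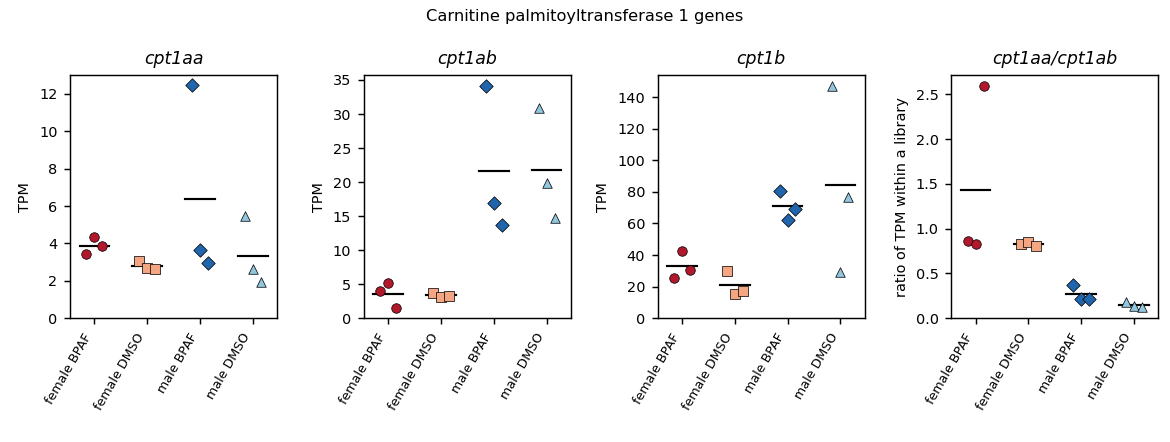
TPM of cpt1aa, cpt1ab and cpt1b and the ratio of cpt1aa to cpt1ab, with 1 point per library and a bar at each group's mean. All 6 female points of cpt1ab, at 1.49 to 5.19 TPM, lie below the male points, at 13.7 to 34.1 TPM, and the ratio is 0.808 to 2.59 in females and 0.130 to 0.366 in males.

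Of the rest of the shuttle, cpt2, the inner-membrane transferase, was 3.06 ± 0.806 TPM in females and 11.01 ± 4.98 TPM in males (SD, n = 6 each). The translocase slc25a20 held 51.3, 43.2 and 47.9 TPM in female BPAF livers and 64.3, 65.7 and 39.5 TPM in female DMSO livers, against 142, 95.3 and 87.3 TPM in male BPAF livers and 170, 102 and 109 TPM in male DMSO livers. Females and males did not overlap for either gene. The cpt2 call held in all 22 alternatives, and slc25a20, at -1.15 ± 0.21 (limma, adjusted p = 0.00112), lost its call after trimmed-mean scaling (adjusted p = 0.433). The peroxisomal carnitine octanoyltransferase crot, with 7.33 ± 2.54 TPM in females, against 16.8 ± 6.34 TPM in males (SD, n = 6 each), lost its call there too (adjusted p = 0.463).

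Fatty acid activation had 2 members, of which acsl1b was tested. The long-chain acyl-CoA synthetase acsl1b held 3.68, 2.21 and 2.47 TPM in female BPAF livers and 1.45, 2.73 and 1.26 TPM in female DMSO livers, against 3.87, 1.44 and 3.07 TPM in male BPAF livers and 0.64, 0.31 and 0.80 TPM in male DMSO livers. The male DMSO libraries were the lowest 3 of the 12, and the other 9 overlapped. The averaged log2 difference was 0.42 ± 0.22 (limma, adjusted p = 0.110) in the deposited values and 1.02 after trimmed-mean scaling (adjusted p = 0.00290). Its paralog acsl1a spanned 0.03 to 0.22 TPM in females, against 0.16 to 1.14 TPM in males, and the ratio of acsl1b to acsl1a was 16.1 to 49.4 in females and 0.775 to 6.14 in males, with a denominator near 0.

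All 6 acyl-CoA dehydrogenases, which start each round of oxidation, were called lower in females in the deposited values (log2 differences -1.25 to -0.75), and none after trimmed-mean or quantile scaling, where acadvl and acad11 had positive differences. Medium-chain acadm held 110, 103 and 71.7 TPM in female BPAF livers and 80.7, 112 and 91.3 TPM in female DMSO livers, against 337, 251 and 212 TPM in male BPAF livers and 274, 162 and 158 TPM in male DMSO livers. Females and males did not overlap, and the difference was -1.25 ± 0.21 (limma, adjusted p = 0.000673), but -0.31 after trimmed-mean scaling (adjusted p = 0.166). The very-long-chain enzyme acadvl was called in 12 of 22 alternatives and acad11 in 9 of 22.

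The later mitochondrial steps showed a similar range, with all 6 genes called lower in the deposited values (log2 differences -1.60 to -1.12) and hadhb alone after either scaling. The trifunctional protein carries the last steps for long chains, with alpha subunits from hadhaa and hadhab and a beta subunit from hadhb. Its beta subunit hadhb held 8.35, 5.78 and 6.61 TPM in female BPAF livers and 5.29, 6.93 and 4.0 TPM in female DMSO livers, against 36.8, 19.2 and 15.7 TPM in male BPAF livers and 30.6, 15.8 and 13.1 TPM in male DMSO livers. All females were below all males, and both differences passed the test: -1.60 ± 0.27 (limma, adjusted p = 0.000657) as deposited and -0.74 after trimmed-mean scaling (adjusted p = 0.0191). Its alpha partner hadhaa held 15.5, 12.3 and 10.2 TPM in female BPAF livers and 11.8, 11.6 and 8.83 TPM in female DMSO livers, against 53.3, 31.5 and 22.7 TPM in male BPAF livers and 45.45, 30.1 and 21.45 TPM in male DMSO livers. These did not overlap between the sexes either, but the adjusted p was 0.000929 as deposited and 0.0542 after trimmed-mean scaling. The other alpha gene hadhab was 8.57 ± 1.86 TPM in females and 23.0 ± 14.8 TPM in males (SD, n = 6 each), with overlap. Reads shared between hadhaa and hadhab could have been split by the counting. The short-chain hydratase echs1 held 19.5, 18.6 and 16.1 TPM in female BPAF livers and 10.96, 20.2 and 19.5 TPM in female DMSO livers, against 56.4, 55.5 and 39.15 TPM in male BPAF livers and 44.6, 53.3 and 23.99 TPM in male DMSO livers. The lowest male value was just above the highest female value, and the call (adjusted p = 0.00110) was lost after trimmed-mean scaling (adjusted p = 0.166).

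The enzymes that prepare unsaturated acids had the lowest group median, -1.63 on the log2 scale, and 3 of the 4 kept their call under both scalings. The peroxisomal dienoyl-CoA reductase decr2 held 8.58, 11.7 and 5.71 TPM in female BPAF livers and 6.14, 13.6 and 12.3 TPM in female DMSO livers, against 30.9, 58.2 and 32.6 TPM in male BPAF livers and 45.9, 61.2 and 29.95 TPM in male DMSO livers. All females were below all males (log2 difference -2.05 ± 0.28; limma, adjusted p = 0.000235), and the difference was -1.16 after trimmed-mean scaling (adjusted p = 0.0137). Its mitochondrial counterpart decr1 held 11.3, 7.79 and 7.33 TPM in female BPAF livers and 6.79, 8.80 and 5.97 TPM in female DMSO livers, against 41.0, 27.2 and 19.6 TPM in male BPAF livers and 36.6, 21.5 and 14.15 TPM in male DMSO livers. Again no female library reached a male one, and the difference was -1.56 ± 0.26 as deposited (adjusted p = 0.000672) and -0.68 after trimmed-mean scaling (adjusted p = 0.0210). The isomerase eci2 held 42.7, 27.3 and 39.8 TPM in female BPAF livers and 25.3, 47.8 and 34.2 TPM in female DMSO livers, against 111, 115 and 98.1 TPM in male BPAF livers and 132, 177 and 84.85 TPM in male DMSO livers. The groups of the sexes were apart here too, with a difference of -1.69 ± 0.23 (adjusted p = 0.000234) and -0.76 after trimmed-mean scaling (adjusted p = 0.0242). The other isomerase, eci1, was 15.7 ± 5.92 TPM in females and 34.6 ± 7.27 TPM in males (SD, n = 6 each) and lost its call there (adjusted p = 0.446).

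The 5 members grouped as peroxisomal steps were all called lower in the deposited values. This group does not hold every member with a peroxisomal role, and decr2 and crot, for example, are described above. None of these 5 was called under either scaling, where hsd17b4 and amacr turned positive. Of decr2 and crot, decr2 kept its call under both scalings and crot lost it. The bifunctional enzyme ehhadh held 39.0, 26.1 and 31.5 TPM in female BPAF livers and 35.0, 30.1 and 21.0 TPM in female DMSO livers, against 65.4, 73.05 and 67.2 TPM in male BPAF livers and 56.0, 52.9 and 53.8 TPM in male DMSO livers. The sexes did not overlap (log2 difference -1.004 ± 0.18; limma, adjusted p = 0.000892), but the difference was -0.08 after trimmed-mean scaling. The other bifunctional enzyme, hsd17b4, held 37.3, 25.1 and 29.3 TPM in female BPAF livers and 29.7, 41.0 and 28.1 TPM in female DMSO livers, against 62.65, 47.8 and 54.2 TPM in male BPAF livers and 52.6, 55.5 and 33.99 TPM in male DMSO livers. One male DMSO library lay within the female range, and the difference of -0.67 ± 0.20 turned to 0.26 after trimmed-mean scaling. The racemase amacr, which readies methyl-branched acids, held 2.15, 1.95 and 2.26 TPM in female BPAF livers and 0.98, 1.82 and 1.54 TPM in female DMSO livers, against 5.61, 3.15 and 2.45 TPM in male BPAF livers and 3.75, 2.20 and 1.82 TPM in male DMSO livers. Its ranges overlapped, and it was called in 7 of 21 alternatives. The thiolase acaa1 and the branched-chain oxidase acox3 were at 24.4 ± 3.44 and 3.84 ± 0.919 TPM in females, against 66.6 ± 36.6 and 9.64 ± 2.96 TPM in males (SD, n = 6 each).

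The electron transfer genes were called lower in the deposited values (3 of 3) and none was under either scaling, where etfb and etfdh turned positive. The flavoprotein subunit etfa held 54.3, 48.6 and 43.9 TPM in female BPAF livers and 39.5, 51.45 and 44.6 TPM in female DMSO livers, against 104, 83.9 and 103 TPM in male BPAF livers and 127, 84.0 and 90.2 TPM in male DMSO livers. The sexes were apart in TPM (log2 difference -1.04 ± 0.17; limma, adjusted p = 0.000587), with -0.11 after trimmed-mean scaling. The dehydrogenase etfdh, which hands the electrons to ubiquinone, held 15.5, 11.1 and 9.71 TPM in female BPAF livers and 11.7, 11.2 and 11.5 TPM in female DMSO livers, against 36.9, 19.7 and 20.1 TPM in male BPAF livers and 22.65, 11.9 and 17.6 TPM in male DMSO livers. Its sexes overlapped, and its difference of -0.75 ± 0.22 became 0.14 after trimmed-mean scaling.

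Of the ketone steps, acat1 had the smallest p of all members. This mitochondrial acetoacetyl-CoA thiolase held 27.75, 19.7 and 21.0 TPM in female BPAF livers and 18.35, 30.8 and 20.5 TPM in female DMSO livers, against 68.7, 101 and 87.3 TPM in male BPAF livers and 98.2, 87.9 and 63.15 TPM in male DMSO livers. The lowest male library held more than the highest female library, and the difference was -1.83 ± 0.20 (limma, adjusted p = 8.8e-05) and -0.91 after trimmed-mean scaling (adjusted p = 0.0111). The hydroxybutyrate dehydrogenase bdh1, which makes the main circulating ketone body, held 6.87, 4.09 and 4.55 TPM in female BPAF livers and 4.57, 4.80 and 5.65 TPM in female DMSO livers, against 7.66, 6.65 and 5.87 TPM in male BPAF livers and 7.11, 9.04 and 7.15 TPM in male DMSO livers. Its ranges overlapped, it was called in 10 of 22 alternatives, and its difference of -0.44 ± 0.17 (adjusted p = 0.0397) turned to 0.36 after trimmed-mean scaling (adjusted p = 0.0703).

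The sex comparison was also made within each treatment, which shares its libraries with the average above. In DMSO livers 16 of 33 members were called lower in females, against 21.2% of all tested genes, and 0 were called higher (limma), against 2.1%, with acsl1b higher at an unadjusted p under 0.05. The 8 with the smallest p were acat1, cpt1ab, eci2, decr2, etfa, hadhb, decr1 and hadhaa, with log2 differences of -2.33 to -1.12. After trimmed-mean scaling 3 were called lower (acat1, cpt1ab and eci2; 4.35% of all tested genes) and acsl1b higher (5.14%). After quantile normalization 1 was lower (cpt1ab; 3.53%) and acsl1b again higher (4.28%). The count was 10 without female DMSO 1 (7.01% of all tested genes lower), 6 without male DMSO 1 (10.1%), 8 without female DMSO 3 (12%) and 9 without male BPAF 1 and male DMSO 1 together (14.1%).

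In BPAF livers 24 of 33 members were called lower in females, against 45.7% of all tested genes, and 0 were called higher (limma; 0 at an unadjusted p under 0.05), against 1.91%. The 8 with the smallest p were acat1, cpt1ab, decr2, acadm, eci2, ehhadh, decr1 and echs1, with log2 differences of -2.30 to -1.08. Under trimmed-mean and quantile scaling 1 was called lower, cpt1ab, against 2.27% and 2.69% of all tested genes, and 0 higher, against 3.85% and 3.27%. The count was 14 without male BPAF 1 (27.2% of all tested genes lower) and 14 without female BPAF 3 (24.4%). All 3 female libraries were below all 3 male libraries for 22 tested members in DMSO livers, against 40.8% of all tested genes, and for 28 in BPAF livers, against 54%. They were above for acsl1b in DMSO livers, against 4.72%, and for 0 members in BPAF livers, against 3.07%. Whether the sex difference itself differed between treatments is given by the interaction below.

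Genes around the pathway, from 9 further lists, were compared between the sexes in the same averaged fit. Regulators had 7 of 13 tested genes called lower in females and 1 higher in the deposited values, against 2 lower and 2 higher under each scaling. Lower as deposited were sirt3, a mitochondrial deacetylase (-1.59), foxo1a, a transcription factor of the fasting response (-1.60), sirt1 and hnf4a, and the first 2 kept their calls under both scalings. Higher was pparab, a paralog of the fatty acid receptor PPAR alpha, with 0.38, 3.61 and 5.02 TPM in female BPAF livers and 1.84, 1.24 and 1.75 TPM in female DMSO livers, against 0.29, 0.50 and 0.04 TPM in male BPAF livers and 0.36, 0.72 and 0.15 TPM in male DMSO livers. Female BPAF library 1 overlapped the males, and the difference was 1.16 ± 0.31 (limma, adjusted p = 0.00835) and 1.60 after trimmed-mean scaling (adjusted p = 0.0118). Of genes of the malonyl-CoA switch, which sets CPT1 activity, 5 of 6 were called lower: the AMP-activated kinase subunits prkab1a (-0.97), prkaa1 and prkag1 and the carboxylase acacb (-1.35) were the 4 with the smallest p, and after trimmed-mean scaling, where prkag1 was not tested, prkab1a was called lower and 1 gene higher.

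The supply of fatty acids was compared next. Of fatty acid uptake and activation genes 7 of 12 were called lower in the deposited values, against 1 lower and 2 higher after trimmed-mean scaling and 2 lower and 2 higher after quantile normalization. They were led by slc27a6, a fatty acid transporter, fabp10a, the liver fatty acid binding protein, slc27a2a and cd36. The transporter slc27a6 held 0.89, 0.20 and 0.77 TPM in female BPAF livers and 0.56, 0.18 and 0.07 TPM in female DMSO livers, against 9.52, 18.4 and 10.1 TPM in male BPAF livers and 16.0, 8.05 and 7.70 TPM in male DMSO livers. The sexes were far apart, with a difference of -3.09 ± 0.24 (limma, adjusted p = 1.25e-05) and -2.52 after trimmed-mean scaling (adjusted p = 0.000125). Of lipolysis and lipid droplet genes 5 of 6 were called lower, led by pnpla2, the adipose triglyceride lipase (-2.26), mgll, the monoglyceride lipase (-2.13), lpl and lipea, and 3 of them after trimmed-mean scaling. The lipase pnpla2 held 1.33, 1.78 and 0.97 TPM in female BPAF livers and 1.15, 0.83 and 1.04 TPM in female DMSO livers, against 14.0, 13.2 and 6.32 TPM in male BPAF livers and 10.7, 9.87 and 5.35 TPM in male DMSO livers.

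Among neighbouring catabolic lists, 13 of 19 other peroxisomal genes were called lower in the deposited values, against 4 lower and 3 higher after trimmed-mean scaling. Among those that kept their call under both scalings were crata, a carnitine acetyltransferase (-1.83), and cat, catalase (-1.45). Of branched and odd chain genes 9 of 12 were called lower (ivd, gcdha, gcdhb and aldh6a1 first) and 0 after trimmed-mean scaling, where 1 was higher. Of PPAR alpha targets outside beta oxidation 7 of 8 were called lower (cyp8b1, ucp1, ucp2 and angptl4 first) and 1 after trimmed-mean scaling. Of tricarboxylic acid cycle genes 12 of 18 were called lower (sdhc, idh3a, suclg2 and suclg1 first), against 2 lower and 4 higher after trimmed-mean scaling. Of other ketone genes 2 of 6 were called lower, with oxct1b having the smallest p, against 0 lower and 3 higher after trimmed-mean scaling. Beside the counts of all these lists stand the shares of all tested genes. Called lower were 55.4% as deposited, 13.1% after trimmed-mean scaling and 12.7% after quantile normalization. Called higher were 3.94%, 15% and 13.9%, so several of these counts were near the share of all genes.

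The exposure comparison asked how liver transcripts of BPAF-exposed fish differed from those of solvent controls in each sex. In females 0 of 33 members were called in either direction (limma), where 0% of all tested genes were called, and 0 members passed an unadjusted p under 0.05, against 67 genes higher and 90 lower. The median log2 difference, BPAF minus DMSO, was 0.05 over the members and -0.01 over all tested genes, and 23 members had a positive difference. These medians were -0.067 and -0.097 without female BPAF 1, with 13 members positive, and -0.035 and -0.049 without female DMSO 1. They were 0.22 and 0.0094 without female DMSO 2, 0.15 and 0.018 without female BPAF 2, and 0.18 and 0.051 without female BPAF 3. The summed level was 856, 728 and 678 TPM in female BPAF livers and 671, 836 and 647 TPM in female DMSO livers, which overlapped. Among positive differences acsl1b (0.45 ± 0.31), cpt1b (0.66 ± 0.49) and amacr (0.36 ± 0.29) had the smallest p, and among negative ones slc25a20 (-0.21 ± 0.30), decr2 (-0.26 ± 0.39) and hsd17b4 (-0.10 ± 0.28) did (all adjusted p = 1). All 3 BPAF libraries were above all 3 DMSO libraries for cpt1aa and amacr, or 2 of 33 tested members, against 2.35% of all tested genes, and below for 0, against 2.12%.

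In males 0 of 33 members were called (limma), where 5 tested genes were called higher (0.0439%) and 1 lower (0.00878%), together 0.0527% of all. The count of 6 genes was 1 with the replicate block, 2 with the block within each sex and 0 without the libraries with heart markers. The median was 0.25 over the members and 0.24 over all tested genes, with 27 members positive, but -0.08 and -0.02 with 9 positive after trimmed-mean scaling. It was -0.0031 over the members and 0.15 over all tested genes without male DMSO 3, 0.043 and 0.08 without male BPAF 1, 0.42 and 0.32 without male BPAF 3, and 0.46 and 0.31 without male DMSO 1. Under trimmed-mean and quantile scaling 0 members were called, where 0% of all tested genes were called higher and 0.00913% and 0.00878% lower. At an unadjusted p under 0.05, 1 member was higher, against 672 genes higher and 50 lower. With the block within each sex 3 members were, against 1023 genes higher and 90 lower, and without male DMSO 1 also 3, against 753 higher and 88 lower. In the fit without a block that member was acsl1b, at 3.87, 1.44 and 3.07 TPM in male BPAF livers and 0.64, 0.31 and 0.80 TPM in male DMSO livers. All exposed libraries were above all controls, and the log2 difference was 1.21 ± 0.31 (limma, unadjusted p = 0.00193, adjusted p = 0.432, with adjusted p of 0.193 to 1 over 23 alternatives) and 0.87 ± 0.25 after trimmed-mean scaling. The peroxisomal ehhadh, at 65.4, 73.05 and 67.2 TPM in male BPAF livers and 56.0, 52.9 and 53.8 TPM in male DMSO livers, did not overlap either, though its difference of 0.33 ± 0.25 (adjusted p = 0.799) became -0.01 after trimmed-mean scaling. These were 2 of 33 tested members, against 9.71% of all tested genes, and 0 were below, against 0.562%. The untested acsl1a was at 1.14, 0.74 and 0.50 TPM in male BPAF livers and 0.16, 0.40 and 0.24 TPM in male DMSO livers.

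The other male differences with the smallest p were etfdh (0.52 ± 0.32) and acadm (0.45 ± 0.29) among positive differences and bdh1 (-0.18 ± 0.24), slc25a20 (-0.23 ± 0.30) and eci2 (-0.22 ± 0.32) among negative ones (limma, adjusted p = 0.794 to 0.880). The summed level was 2356, 1682 and 1492 TPM in male BPAF livers and 2223, 1492 and 1301 TPM in male DMSO livers, so the groups overlapped, with each BPAF sum above the DMSO sum of the same number. In both male groups the highest sum was in the library with heart markers (977 TPM of these in male BPAF 1 and 92.8 TPM in male DMSO 1), whose part was not tested beyond leaving both libraries out, when again 0 members were called. The SE of the exposure difference was 0.24 to 0.53 on the log2 scale over the members.

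**Figure D5:**
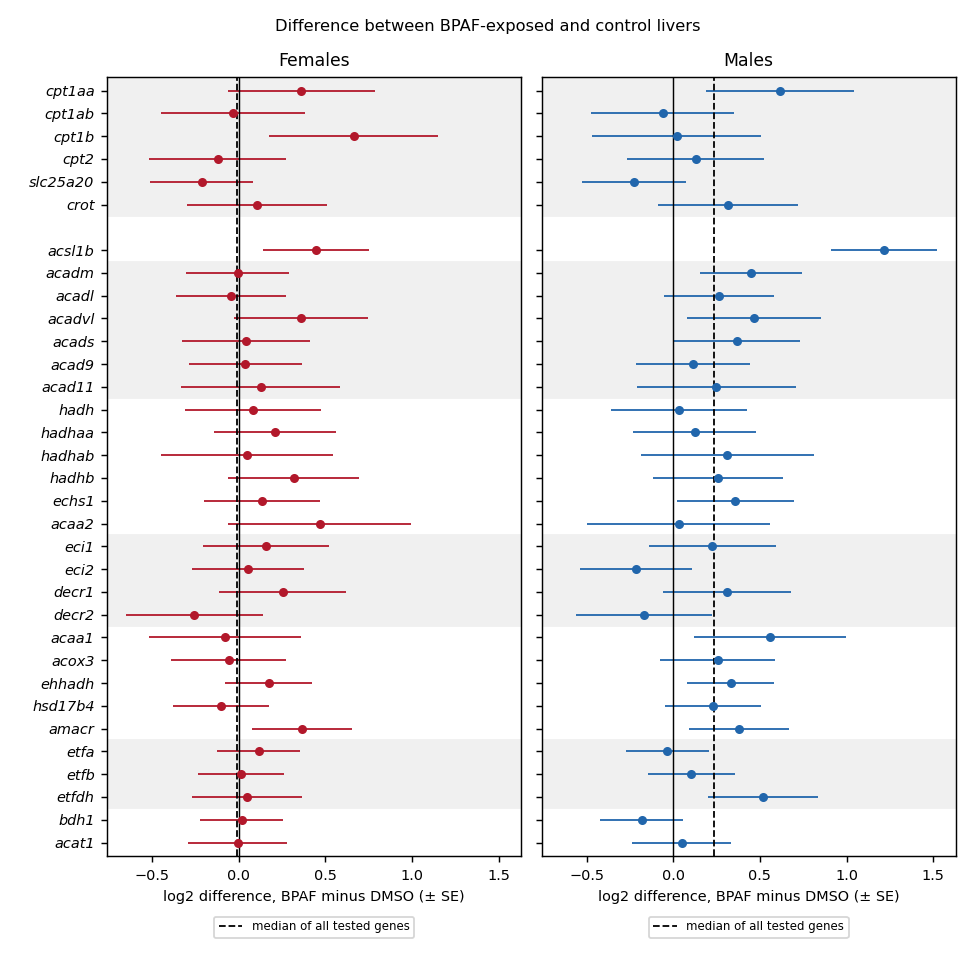
Log2 difference, BPAF minus DMSO, of each of the 33 tested genes in females (left) and males (right), with points and SE bars; dashed lines mark the median of all tested genes. None of the 33 genes passed the test in either sex, and acsl1b in males, at 1.21, lies farthest from 0; the male median of 0.25 is beside 0.24 for all tested genes and is -0.08 after trimmed-mean scaling.

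The interaction, the exposure difference in females minus that in males, was called for 0 of 33 members (limma), where 0% of all tested genes were called, and for 0 members at an unadjusted p under 0.05, against 46 genes higher and 322 lower. Among the members chosen by their p, the largest in size was acsl1b at -0.77 ± 0.43, followed by cpt1b at 0.64 ± 0.69, etfdh at -0.47 ± 0.45, acadm at -0.46 ± 0.42, eci2 at 0.27 ± 0.46 and bdh1 at 0.20 ± 0.34 (all adjusted p = 0.995). Members outside this choice could be larger in size than some of these, such as acaa1 at -0.64 ± 0.62. The 9 further lists and the marker lists likewise had 0 genes called in females, in males and in the interaction.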

How the data were processed

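Per the labels' protocols, TRIzol was used for RNA and a TruSeq kit for libraries. The submitters' processing notes name HISAT2 2.1.0, RSEM and Cufflinks with neither role nor order. Genome build and annotation were not given in the sources used here. In the deposited table each gene has 1 value per library, taken as TPM made by the authors: the header names no unit, the values have 2 decimals and RSEM is named, and each library sums to 978505 to 992375. TPM keep no depth, so the sequencing depth is unknown and no counting interval was made. The authors' group means were not used as replicates, and 0 columns were unassigned.

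Groups and replicate numbers came from the labels. From the TPM, log2(TPM + 1) was fitted in limma 3.58.1 (R 4.3.3) with a mean per group over 12 libraries (8 residual degrees of freedom) and an intensity trend, for genes at 1 TPM or more in at least 3 libraries (11389 of 32520 genes, where 7000 were at 0 in all libraries). The 6 contrasts were BPAF against DMSO in each sex, their interaction, and female against male in each treatment and averaged. Scripts were tested on simulated data. Identifiers of 34 of 34 members and of 29201 of all genes were found in a separate gene name table. Members called in a contrast were named with values per library, up to 8 per direction by p, and where fewer than 3 were called, those with the smallest p up to 3 per direction; from other lists up to 4 called genes per direction were named, with values per library for a few. Some genes of these lists are not reported here. The members and lists were chosen with earlier results of these data known.

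Same-numbered libraries deviated together in males (correlations of deviations from the group means 0.327 to 0.376 over 3 pairs, against -0.235 to -0.120 for differently numbered ones). In females these correlations were 0.0526 to 0.226, against -0.277 to 0.224 for differently numbered ones. Deviations within a group of 3 sum to 0 for each gene, so the same-numbered and differently numbered values are not independent. None of the labels says what a number marks. Alternatives were pseudocounts of 0.1 and 5, no filter, a filter at 5 TPM, trimmed-mean scaling (30% of ratios and 5% of levels trimmed), quantile normalization, removal of vitellogenin genes, a replicate block, fits on the compared libraries alone, array weights, and each library left out. A block within each sex and the joint removal of male BPAF 1 and male DMSO 1 were added after seeing the data.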

Additional observations from a re-analysis of the deposited data

How the results depend on the processing

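The precision is limited by 3 libraries a group, and the sex calls depend on the scaling. Members called lower in females, averaged over treatment, numbered 7 under trimmed-mean scaling (13.1% of all tested genes) and 7 under quantile normalization (12.7%). They numbered 27 to 31 when 1 library was left out. In that comparison 1 was called higher under trimmed-mean scaling (15%), quantile normalization (13.9%), vitellogenin removal and array weights. Genes called in that comparison numbered 6762 of 11389 tested with the settings used above and 3679 of 5020 tested with a filter at 5 TPM. They numbered 3077 of 10947 under trimmed-mean scaling and 3026 of 11389 under quantile normalization (5873 to 6884 without 1 library). In DMSO livers 1 member was called higher with a pseudocount of 0.1 (2.6% of all tested genes) and under both scalings (5.14% and 4.28%). The same held with array weights and with only the libraries compared. Members called lower there numbered 10 with no filter (5.81% of all tested genes), 3 under trimmed-mean scaling (4.35%) and 1 under quantile normalization (3.53%). They numbered 4 without vitellogenin genes (6.84%) and 9 without both libraries with heart markers (6 to 21 without 1 library). Genes called there numbered 2655 of 11389 tested with the settings used above and 1639 of 25520 tested with no filter. They numbered 1039, 890, 1055 and 1652 under the same 4 further settings (909 to 3199 without 1 library). In BPAF livers members called lower numbered 1 under each scaling (2.27% and 2.69% of all tested genes) and 9 without vitellogenin genes (20.6%). They numbered 14 to 26 without 1 library. For the other settings the shares of all tested genes called in each direction are given above or are not reported here. Genes called there numbered 5424 of 11389 tested with the settings used above and 3146 of 5020 tested with a filter at 5 TPM. They numbered 670 and 678 under the trimmed-mean and quantile scalings and 2657 without vitellogenin genes. Without both libraries with heart markers 2967 were called (2919 to 5412 without 1 library).

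No exposure or interaction call was made for any member under any setting run. The male count of genes, 6, was 1 with a pseudocount of 0.1, 10 with 5, 73 with no filter, 1 with a filter at 5 TPM, 1 under each scaling, 3 without vitellogenin genes, 1 with the replicate block, 2 with the block within each sex, 0 with only the libraries compared, 0 without both libraries with heart markers and 0 to 5 without 1 library. With no filter, where 25520 genes were tested, the female count was 3 and the interaction count 12. A filter at 5 TPM left 5020 tested genes. The interaction count was 1 with either other pseudocount and 0 to 1 without 1 library. The replicate block moved no count of members by more than 1.5 times (20 lower in DMSO livers, 27 in BPAF livers, 31 averaged). Without the block these counts were 16, 24 and 31, where 21.2%, 45.7% and 55.4% of all tested genes were called lower. The shares of all tested genes with the block are not reported here, so its counts say nothing particular to the members.

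Over all 33 members, positive differences numbered 27 as deposited, 9 under trimmed-mean scaling and 18 under quantile normalization in the male exposure comparison, and 10, 29 and 23 in the interaction. With array weights the members' median exposure difference was -0.022 in females and 0.033 in males. Of the members named in each comparison, these sex differences averaged over treatment changed sign under trimmed-mean scaling and quantile normalization: acad11 (0.033 and 0.032), acadvl (0.17 and 0.20), amacr (0.13 and 0.088), bdh1 (0.36 and 0.36), cpt1aa (0.52 and 0.47), etfb (0.21 and 0.24), etfdh (0.14 and 0.15) and hsd17b4 (0.26 and 0.30). That of cpt1aa was also 0.049 without vitellogenin genes, 0.031 without male BPAF 1 (-0.41 to 0.031 without 1 library) and 0.20 without both libraries with heart markers. In BPAF livers the sex difference of ehhadh was 0.032 under trimmed-mean scaling, and that of acsl1b was -0.25 without male BPAF 2 and -0.13 without female BPAF 1 (-0.25 to 0.25 without 1 library). The exposure difference of eci2 in males was 0.029 without male DMSO 2 (-0.50 to 0.029 without 1 library), and that of hsd17b4 in females was 0.027 without female BPAF 2 and 0.061 without female DMSO 2 (-0.25 to 0.061 without 1 library). The cause of these changes was not tested.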
